A study of Mus musculus with 6 samples.

Results

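The genes described here are 10 that are switched on by signalling through the kinase ERK and, in most cases, act back on it: the dual-specificity phosphatase genes Dusp4, Dusp5 and Dusp6, the Sprouty genes Spry1, Spry2 and Spry4, the Sprouty-related genes Spred1 and Spred2, and the ETS transcription factor genes Etv4 and Etv5. They were chosen by name, and every array probe annotated with one of these symbols was taken. Of the 10 genes, 9 had a probe among the 19057 genes named on the array, with 17 probes in all, and Spry1 was not analysed here. The arrays measured total RNA of sciatic nerves taken from mice on postnatal day 14. Of the 6 arrays, 3 held nerves of mutants with P0-Cre and mutated Dicer, whose genotype label adds "F or N" without explanation. The other 3 held nerves of control littermates, which the sample titles mark as WT without naming their Cre or Dicer alleles. P0 is the main protein of peripheral myelin, so that Cre under its promoter acts in the Schwann cell lineage, and Dicer cuts microRNA precursors to their mature length. The other cells of the nerve, such as fibroblasts and endothelium, are in the sample but are not the target of that promoter. The design text mentions cultured cells, whereas the title and the sample labels name sciatic nerve, which is followed here.

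Growth factor receptors pass their signal through Ras and the kinases Raf and MEK to ERK, which enters the nucleus and turns on a set of early genes. Several of these genes encode inhibitors of the same pathway: dual-specificity phosphatases remove phosphate from ERK, while Sprouty and Spred proteins hold back Ras and Raf. The level of their RNA is therefore widely used as a readout of recent ERK activity. In Schwann cells, ERK signalling downstream of neuregulin is needed for myelination in development, and strong ERK activation in the adult nerve drives myelinating cells back towards an immature state.

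The deposited signals lie on a log2-like scale that runs from 7.96 to 15.91 with a median of 8.24, and each difference is mutant minus control on that scale. The 18420 probes with the highest mean over the 6 arrays were tested with limma, and a probe was called at a Benjamini-Hochberg adjusted p under 0.05. Correlations over these probes were 0.992 to 0.995 among controls, 0.973 to 0.993 among mutants and 0.912 to 0.942 between the groups. The arrays carried the markers of the labelled tissue. Sox10, a transcription factor of the Schwann lineage, had a signal of 13.98 ± 0.119 in mutants and 13.94 ± 0.0229 in controls (SD, n = 3 each), and the mean of 4 markers of myelinating Schwann cells was 14.67 to 14.75 in controls and 12.55 to 12.76 in mutants. It is not stated whether animals were pooled for an array. The p-values therefore rest on the spread between 6 samples, part of which may be technical.

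In the mutant nerves, Dusp4, Dusp5, Dusp6, Spred1, Etv4 and Etv5 were higher than in controls. Spry4 was not called, and Spry2 and Spred2 were too dim to be tested. Of the 9 genes with a probe, 7 passed the brightness filter, and all 7 would have passed it on the control arrays alone. Of these 7, 6 rose (by the brightest probe of each gene, limma adjusted p under 0.05). The fit was unpaired, and with the replicate number as a block the call of Etv4 was lost. Over all 10273 genes tested, 22% were called higher and 17.6% lower. In the same 6 genes every mutant array lay above every control array, which was so for 29.7% of all genes tested. Counted by probe, 11 of the 12 tested were called higher and had groups that did not overlap. Over all tested probes 19.9% were called higher and 28.3% had every mutant array above every control array. The 11 probes belong to the same 6 genes and read the same RNA samples, so that they are not independent of each other. The 6 differences ran from 0.20 for Etv4 to 1.60 for Dusp4. Over all genes tested the median difference was 0.01, where rises and falls cancel. The median size of the difference, taken without its sign, was 0.20, and that of Etv4 was no larger. Without any brightness filter the count over the 9 genes was again 6 higher, against 11.2% of 19057 genes. The members and the lists were chosen with earlier results of these data known.

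**Figure D1:**
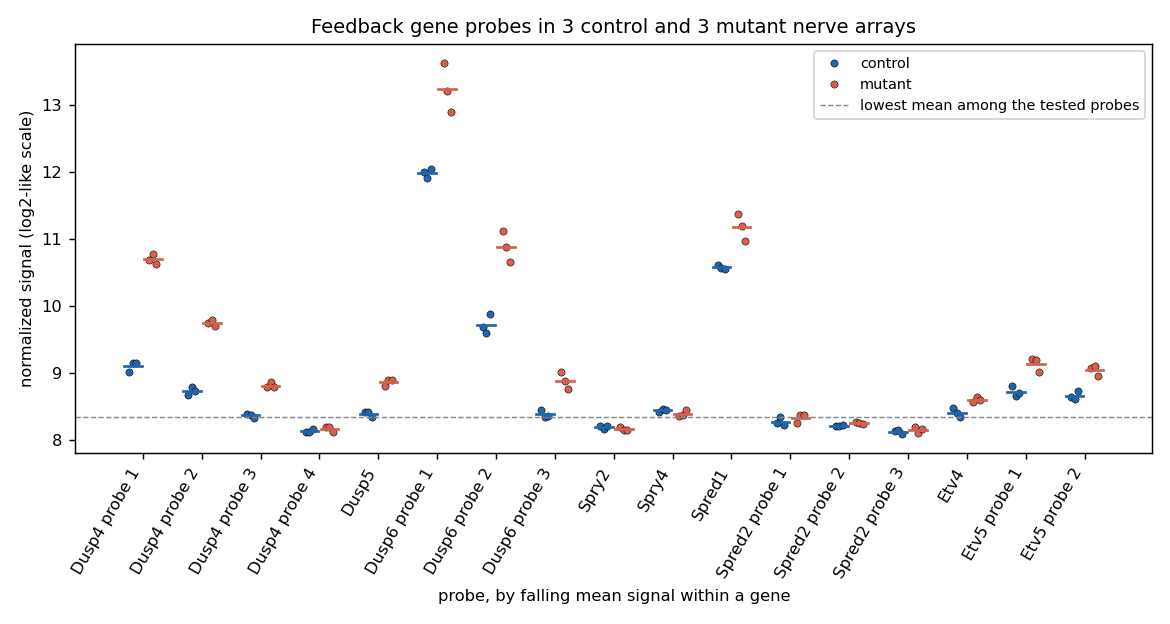
Normalized signal (log2-like scale) of all 17 probes of the feedback genes, with 1 point per array (3 control and 3 mutant arrays) and a line at each group mean; the dashed line is the lowest mean among the tested probes (8.34). The groups separate in all 11 called probes, and the probes of Spry2, Spry4 and Spred2 lie near the dashed line in both groups.

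The phosphatase genes Dusp4 and Dusp6 showed the largest rises of the set, followed by Spred1 and then the third phosphatase gene, Dusp5. Dusp4, which encodes a nuclear phosphatase of ERK and of the related kinase JNK, was read by 4 probes. On its brightest probe the mutant arrays had 10.69, 10.78 and 10.62 and the controls 9.01, 9.15 and 9.15. All 3 mutants lay close together and far above all controls. The difference was 1.60 (SE 0.066, limma adjusted p = 1.27e-05), and 84 of the 10273 genes tested rose by more. In bulk nerve, more RNA per cell and more cells that express a gene cannot be told apart, for Dusp4 and for every gene below.

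The further Dusp4 probes gave smaller differences the dimmer they were. The second probe had 9.74, 9.79 and 9.70 in mutants and 8.67, 8.79 and 8.74 in controls, which differ by 1.02 (SE 0.055, limma adjusted p = 3.81e-05). The third probe had 8.79, 8.86 and 8.79 against 8.39, 8.38 and 8.33, which differ by 0.44 (SE 0.050, limma adjusted p = 8.51e-04). The groups did not overlap on either probe. The fourth, with 8.17 ± 0.0399 in mutants and 8.13 ± 0.0261 in controls (SD, n = 3 each), lay below the median of all probes and was not tested. A difference between dim probes can understate the change where the signal nears the floor of the scale.

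Dusp6 encodes the cytoplasmic phosphatase that acts on ERK in preference to other kinases of its family. Its brightest probe had 13.64, 13.21 and 12.90 in the mutant arrays and 12.00, 11.91 and 12.05 in the controls. The mutants were all higher but spread over 0.74, while the controls spanned 0.14. The difference was 1.26 (SE 0.175, limma adjusted p = 0.00201), and the range over fits that left out 1 array was 1.06 to 1.43.

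The other probes of Dusp6 gave the same order of the mutant arrays. The second had 11.13, 10.88 and 10.66 in mutants against 9.68, 9.59 and 9.88 in controls, and these differ by 1.17 (SE 0.132, limma adjusted p = 8.24e-04). The third, a dim probe, had 9.02, 8.88 and 8.76 against 8.44, 8.35 and 8.36, which differ by 0.50 (SE 0.076, limma adjusted p = 0.00286). On all 3 probes mutant replicate 1 was highest and mutant replicate 3 lowest. These probes read the same RNA samples, so that they are not independent of each other.

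Dusp5, whose product removes phosphate from ERK in the nucleus, was read by 1 probe. The mutants had 8.81, 8.89 and 8.90 and the controls 8.42, 8.42 and 8.34. The groups did not overlap, and each spanned under 0.10. The difference was 0.47 (SE 0.054, limma adjusted p = 9.12e-04). With a control mean of 8.39 against a filter at 8.34, this probe lay at the dim end of the scale in controls.

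The adaptor genes were mostly dim, with 1 exception. Spred1, which binds the Ras inhibitor neurofibromin and brings it to the membrane, had 11.38, 11.20 and 10.97 in mutants and 10.61, 10.57 and 10.55 in controls. All mutants were higher, with the same order of mutant arrays as in Dusp6. The difference was 0.61 (SE 0.103, limma adjusted p = 0.00461). Its relative Spred2 had 3 probes, none of which passed the filter. Their means were 8.16 to 8.33 in mutants and 8.13 to 8.27 in controls.

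The Sprouty genes, whose products block Ras activation downstream of growth factor receptors, were not called. Spry4 had 8.35, 8.38 and 8.45 in mutants and 8.41, 8.46 and 8.46 in controls. The groups overlapped, and the difference was -0.05 with a 95% interval of -0.17 to 0.07 (limma adjusted p = 0.513). Spry2 had 8.19, 8.15 and 8.16 in mutants and 8.22, 8.16 and 8.21 in controls, below the median of all probes in both groups, and was not tested in the filtered set. With all 45281 probes tested, Spry2 differed by -0.03 (95% interval -0.09 to 0.03, limma adjusted p = 0.577) and the brightest Spred2 probe by 0.06 (-0.06 to 0.17, limma adjusted p = 0.569). On probes as dim as these, a change in the RNA may not be visible, and the intervals describe the probe signal alone. That limit is not particular to the genes not called. Spry4, with a control mean of 8.44, was no dimmer in controls than Dusp5 (8.39) and Etv4 (8.41), which were called higher.

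Etv5 and Etv4 encode transcription factors of the PEA3 group of ETS proteins, which carry growth factor signals to the genome. The brightest Etv5 probe had 9.21, 9.19 and 9.02 in mutants and 8.80, 8.65 and 8.70 in controls. The other had 9.08, 9.10 and 8.96 against 8.65, 8.61 and 8.73. Mutant replicate 3 was lowest of the mutants on both, and the groups did not overlap on either. The differences were 0.42 (SE 0.073, limma adjusted p = 0.00517) and 0.38 (SE 0.063, limma adjusted p = 0.0041).

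Etv4 had 8.57, 8.64 and 8.60 in mutants and 8.48, 8.40 and 8.34 in controls. The groups did not overlap, but the nearest arrays were only just apart. With means of 8.60 in mutants and 8.41 in controls against a filter at 8.34, the Etv4 probe lay at the dim end of the scale. The difference was 0.20 (SE 0.057, limma adjusted p = 0.0376). This call was lost with the replicate number as a block (limma adjusted p = 0.0748). The call was also lost when mutant replicate 2 (0.112), mutant replicate 3 (0.0766), control replicate 2 (0.108) or control replicate 3 (0.112) was left out. Etv1, which belongs to the same PEA3 group but not to the set chosen here, had 11.53, 11.09 and 11.16 in mutants and 10.61, 10.46 and 10.66 in controls. It rose by 0.68 (SE 0.123, limma adjusted p = 0.006), and both its dimmer probes were called higher too, by 0.39 and 0.33.

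**Figure D2:**
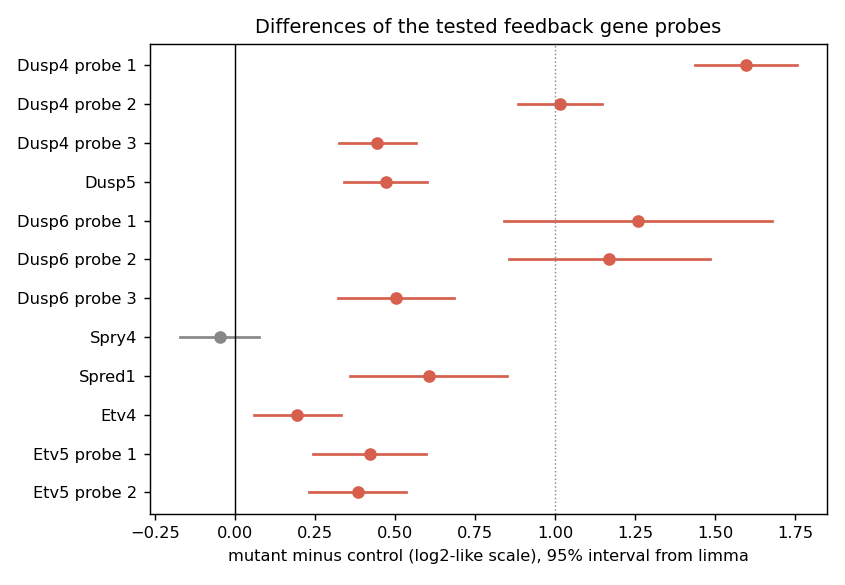
Mutant minus control on the log2-like scale for the 12 tested probes of the feedback genes, each with its 95% interval from limma; red probes were called, grey was not, and the dotted line marks a difference of 1. The called differences run from 0.20 (Etv4) to 1.60 (Dusp4), and the interval of Spry4 includes 0.

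The design text names a 2-fold threshold, applied here as a difference of at least 1, which equals 2-fold only if the scale is plain log2. By it Dusp4 and Dusp6 were called among the feedback genes, where 2.64% of all genes tested were called higher by that rule. On this scale 760 of 10273 genes rose by more than Spred1, 1086 by more than Dusp5, 1291 by more than Etv5 and 2705 by more than Etv4.

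The promoters shown are those of Dusp5, Dusp6 and Spred1, which rose and whose windows held a motif marked below. Etv5 rose too, but its windows held no such motif and are not shown. ETS factors and the serum response factor are known endpoints of ERK signalling. RefSeq start sites on build GRCm38.p6 gave promoter windows for 7 of the 10 genes, and the 250 bases before the start were read. Windows of Dusp4, Spry4 and Etv4 were not analysed here. Both strands were searched for a short ETS core (CGGAA), a long ETS core (CCGGAA, which contains the short one), an AP-1 site (TGANTCA), a cyclic AMP response element (TGACGTCA), an Egr site (GCGNGGGCG) and the CArG box bound by serum response factor. The CArG box and the short ETS core were added after the windows had been read. Capitals mark CArG boxes and short ETS cores, on either strand:
Dusp5 (chr19:53528895-53529144, plus strand): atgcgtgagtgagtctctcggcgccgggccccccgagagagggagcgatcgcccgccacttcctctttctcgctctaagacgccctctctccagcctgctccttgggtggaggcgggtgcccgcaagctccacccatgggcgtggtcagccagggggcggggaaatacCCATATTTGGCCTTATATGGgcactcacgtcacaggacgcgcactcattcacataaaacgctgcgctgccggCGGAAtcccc
Dusp6 (chr10:99262981-99263230, plus strand): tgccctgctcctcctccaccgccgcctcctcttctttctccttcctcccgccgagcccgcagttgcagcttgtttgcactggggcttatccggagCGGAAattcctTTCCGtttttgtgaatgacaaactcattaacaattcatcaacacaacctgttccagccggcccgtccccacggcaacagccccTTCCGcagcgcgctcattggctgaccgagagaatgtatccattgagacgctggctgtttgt
Spred1 (chr2:117120821-117121070, plus strand): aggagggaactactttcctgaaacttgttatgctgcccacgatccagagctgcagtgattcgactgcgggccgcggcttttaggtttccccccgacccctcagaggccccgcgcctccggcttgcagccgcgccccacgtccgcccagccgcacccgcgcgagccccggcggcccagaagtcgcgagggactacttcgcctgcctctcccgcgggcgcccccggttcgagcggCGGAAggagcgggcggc

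The Dusp5 window held 2 CArG boxes side by side, at 82 to 73 and 72 to 63 bases before the start, and 1 short ETS core. A CArG box was present in 1.47% of 32851 windows of this length. The Dusp6 window held 3 short ETS cores and that of Spred1 held 1, and 25.2% of all windows held at least 1. Spred2, whose probes were not tested, had 2, and the windows of Spry1, Spry2 and Etv5 had no match to either motif. A short ETS core was thus present for 4 of the 7 genes, 3 of them among the genes that rose. Both motifs were added after these windows had been read, so that setting their counts beside the shares over all windows is no test. The long ETS core, the AP-1 site, the cyclic AMP response element and the Egr site matched no window of these genes, against 12%, 6.75%, 1.55% and 4.7% of all windows. A match is a description of the letters and not evidence of binding.

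Other genes of the pathway were set beside the feedback genes, starting with the ligands and receptors that feed it. The counts of each list stand beside 22% called higher and 17.6% called lower over all genes tested. Of 12 ligand genes tested, 4 rose and 3 fell, with a median difference of 0.03. Gdnf, a ligand of the receptor Ret, had 11.25, 11.09 and 11.22 in mutants and 8.13, 8.16 and 8.15 in controls, and Hbegf, a ligand of the EGF receptor, had 11.58, 11.24 and 11.46 against 9.84, 9.66 and 9.90. Each had another probe that was too dim to be tested, with a difference of -0.01 for Gdnf and -0.03 for Hbegf. Fgf1 and Fgf7, ligands of FGF receptors, fell by 1.75 (SE 0.142) and 1.38 (SE 0.096), with limma adjusted p = 1.97e-04 and 1.02e-04. The fall was also called on the second Fgf1 probe, at -0.70. Gdnf and Fgf9 passed the brightness filter through the mutant arrays, and with the filter on the control arrays alone, an alternative chosen after seeing the data, 2 ligand genes were called higher.

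Of 13 receptor genes tested, 2 rose and 11 were not called, with a median of 0.06. Pdgfrb, a receptor of platelet-derived growth factor also carried by mural cells, rose by 0.36 (SE 0.060, limma adjusted p = 0.00463). Igf1r, the receptor of insulin-like growth factor, differed by 0.35 (SE 0.099, limma adjusted p = 0.0339). That call was lost with all probes tested (0.0768) and on leaving out mutant replicate 2 (0.102), mutant replicate 3 (0.0674), control replicate 1 (0.0674) or control replicate 3 (0.0828). The number of receptor genes called higher was then 1 without mutant replicate 3, control replicate 1 or control replicate 3.

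In the cascade from adaptors to kinases, 4 of 13 tested genes rose and 2 fell, with a median of -0.03. Mras, a Ras-related GTPase, had 11.51, 11.28 and 11.40 in mutants and 14.01, 13.85 and 14.00 in controls, and its second probe fell by 1.75. Map2k2, which encodes a MEK kinase, fell by 0.41 (SE 0.067, limma adjusted p = 0.00388), while a dim Map2k2 probe differed by -0.02. Nras and Rasgrp1, an activator of Ras, rose by 0.67 (SE 0.130) and 0.71 (SE 0.053). Dimmer probes differed by 0.26 and 0.07 for Nras and, untested, by 0.05 and 0.02 for Rasgrp1. Araf was counted as higher by its brightest probe, but of its 4 tested probes 2 were called higher and 2 lower, so that its direction is uncertain. Without mutant replicate 1, 4 genes of this list were called lower.

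Of 17 tested inhibitors of the cascade outside the feedback set, 3 rose and 4 fell, shares near those over all genes tested, with a median of 0.00. Pea15a, which holds ERK in the cytoplasm, had 10.86, 10.44 and 10.34 in mutants and 12.88, 12.54 and 12.84 in controls. Rasal2, a GTPase-activating protein of Ras, fell by 1.93 (SE 0.143), and Pebp1, which binds Raf, fell by 0.82 (SE 0.113). The dimmer Rasal2 probes differed by -1.07 and -0.03. Lrig1, which lowers the amount of ErbB receptors, rose by 1.01 (SE 0.080, limma adjusted p = 1.79e-04). Dusp1, an immediate early phosphatase of several MAP kinases, had 11.59, 11.40 and 10.99 in mutants and 11.47, 11.26 and 10.72 in controls, and these overlapped (limma adjusted p = 0.597). The mutant was higher in each of the 3 same-numbered pairs, but Dusp1 was not called with the replicate block either. Of the 3 phosphatase genes directed at p38 and JNK, Dusp8 fell by 0.48 (SE 0.063, limma adjusted p = 0.00155) and Dusp10 and Dusp16 were not called. Without mutant replicate 1, 2 of these were called lower.

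Of 19 other genes known to be induced by ERK signalling, 10 rose and 9 were not called, with a median of 0.37. Egr1, an immediate early transcription factor, had 13.90, 13.83 and 13.29 in mutants and 11.89, 11.56 and 11.22 in controls. Egr3 had 11.80, 11.65 and 11.69 against 10.45, 10.23 and 10.26, while another Egr3 probe, too dim to be tested, differed by 0.01. Ccnd1, the gene of cyclin D1, rose by 1.87 (SE 0.058) with all 3 of its probes called, and Phlda1 rose by 0.99 (SE 0.063). Fos, by contrast, stood at 9.77 ± 0.334 in mutants and 9.77 ± 0.244 in controls (SD, n = 3 each). Jun and Ccnd1 are also genes of immature Schwann cells, and Jun rose by 0.37.

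Among the 10 tested ETS factors outside the PEA3 group, Ets1 rose by 0.77 (SE 0.136, limma adjusted p = 0.00542) and the other 9 were not called. The brightest Ets1 probe had 11.05, 10.81 and 10.50 in mutants and 10.01, 10.10 and 9.94 in controls. The other Ets1 probes were too dim to be tested and differed by -0.02 to 0.09. Without mutant replicate 3, 3 genes of this list were called. Over the 6 arrays, Sdc3, Tenm3 and Lgmn had the patterns most like that of the brightest Dusp4 probe, with Pearson correlations of 0.9998, 0.9993 and 0.9992. The 6 points fall into the 2 groups compared, and 1031 of 10266 genes had a correlation above 0.95.

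**Figure D3:**
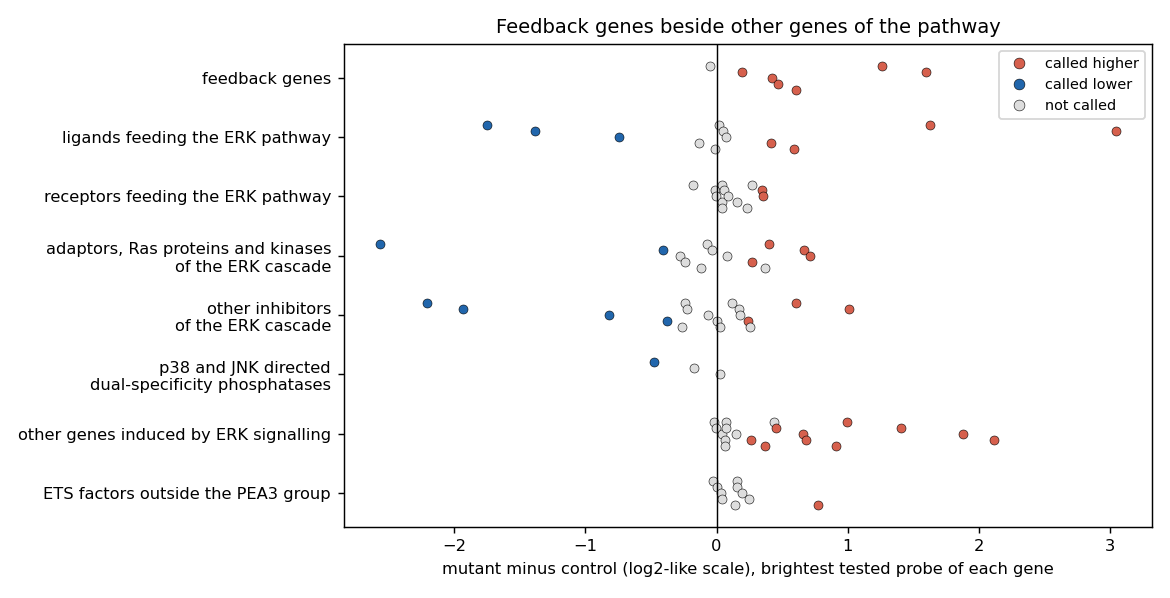
Mutant minus control on the log2-like scale for the brightest tested probe of each gene, with 1 point per gene and 1 line per list; red is called higher, blue called lower and pale grey not called. Of the tested feedback genes 6 of 7 lie to the right of 0 as called genes, and of the other ERK-induced genes 10 of 19 do, while the lists of ligands, cascade genes and other inhibitors hold called genes on both sides.

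The feedback genes are expressed by several cell types, so markers of these cells are given beside them. The mean of 3 markers of immature and non-myelinating Schwann cells was 11.64 to 11.71 in mutants and 9.71 to 9.81 in controls. Fibroblast markers (6 tested) lay at 13.54 to 13.75 in mutants and 13.18 to 13.36 in controls, macrophage markers (6 tested) at 10.33 to 10.34 and 10.12 to 10.27, and mast cell markers (5 tested) at 9.67 to 10.08 and 9.13 to 9.24. By gene, 2 fibroblast markers and 4 mast cell markers were called higher. Of the macrophage markers 1 was called higher and 1 lower. The others of these 3 lists were not called. Endothelial markers (6 tested) lay at 10.04 to 10.23 and 10.20 to 10.48, which overlap, but the mutant was lower in each of the 3 same-numbered pairs, and 2 of the 6, Cldn5 and Flt1, fell. The groups also overlapped in mural cell markers (5 tested), at 10.39 to 10.47 and 10.08 to 10.68, and in perineurial markers (5 tested), at 11.14 to 11.31 and 11.21 to 11.51. Adipocyte markers (3 tested) were lower in every mutant, at 9.39 to 9.69 against 9.97 to 10.39. The 3 tested Schwann lineage markers had a mean of 10.34 to 10.47 in mutants and 10.74 to 10.87 in controls, where S100b, a calcium-binding protein, fell by 1.19 and Sox10 did not differ beyond its spread. Of the 4 neutrophil markers on the array 1 was tested, Retnlg, at 8.50 to 9.45 in mutants and 8.19 to 8.22 in controls. Its control mean of 8.20 lay below the filter at 8.34, so that it was tested only through its mutant arrays. The 2 neuronal markers tested overlapped at 8.44 to 8.47 and 8.39 to 8.61. No marker of T or B cells was tested. The part of these cells in the rises of Dusp4, Dusp5, Dusp6, Spred1, Etv4 and Etv5 was not tested.

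Skeletal muscle markers (5 tested) varied most between arrays of a group. Their mean was 12.49, 12.09 and 10.17 in mutant replicates 1, 2 and 3 and 12.43, 13.69 and 12.31 in the controls. The mutant arrays stood in the same order for muscle markers as for Dusp6 and Spred1. Egr1, Ets1 and Pea15a had this order too, on their brightest probes, while Gdnf, Hbegf and Egr3 did not. How many of all genes had it was not counted. Control replicate 2, the highest in muscle, was the lowest control on the brightest Dusp6 probe and the middle control for Spred1. A part of muscle in these values was not tested. Relative to the control mean, Dusp6 was higher by 1.65, 1.22 and 0.91 in mutant replicates 1, 2 and 3, and Spred1 by 0.80, 0.63 and 0.39. The brightest Etv5 probe had the same order, at 0.49, 0.47 and 0.30, and so did Sox10, at 14.09, 14.00 and 13.85. The other Etv5 probe did not, with signals of 9.08, 9.10 and 8.96 in mutant replicates 1, 2 and 3. Dusp4 was higher by 1.59, 1.68 and 1.52, and Dusp5 by 0.41, 0.50 and 0.50, with no such order. Without mutant replicate 1, 2 or 3 in turn, Dusp6 and Spred1 were still called.

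**Figure D4:**
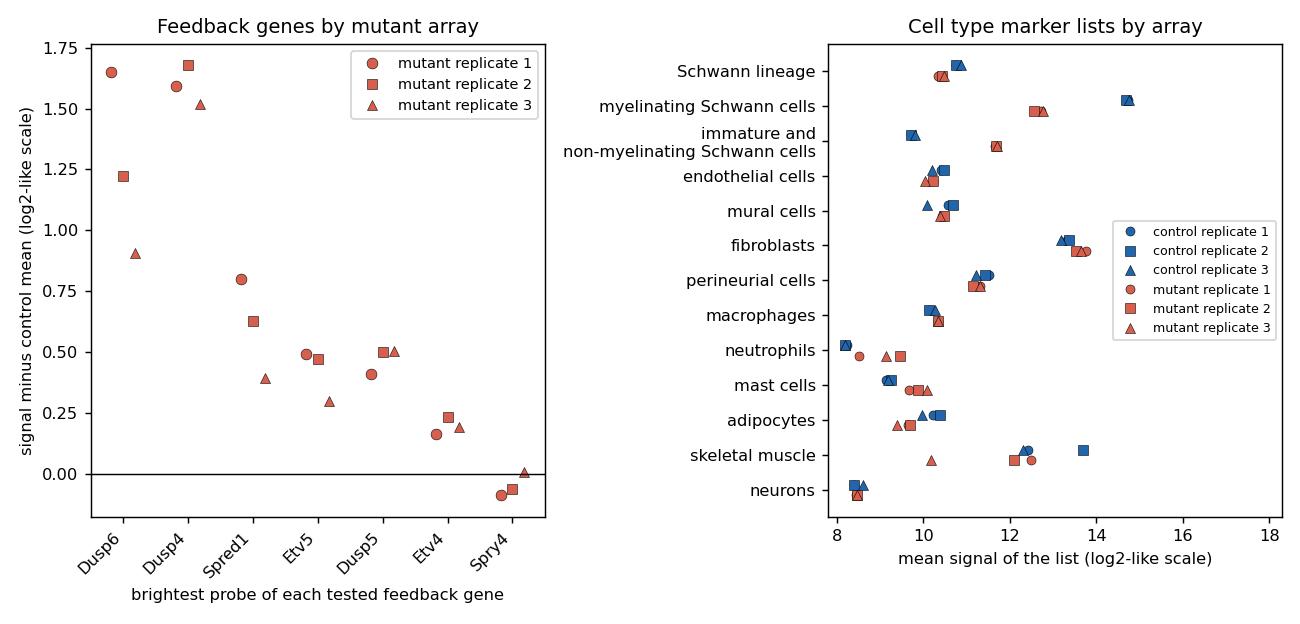
Left, signal of the brightest probe of each tested feedback gene in the 3 mutant arrays, minus the control mean (log2-like scale); right, mean signal of each cell type marker list in every array, with blue for controls and red for mutants. The mutant arrays spread most for Dusp6 (0.91 to 1.65 above controls), and the muscle markers spread most of the marker lists (10.17 to 12.49 in mutants).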

How the data were processed

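Mouse WG-6 version 2 bead arrays were read for 6 nerve samples, 3 per group by the sample titles. The authors deposited normalized log2-like values of 45281 probes. Per the labels' design text, the normalization was RMA and the package limma; lumi 1.8.3 is named in the submitters' processing notes. The transform may be plain log2 or lumi's variance stabilisation, so differences are not turned into folds. The design text's present and absent calls were not used here; the 18420 probes with the highest mean were kept in their place. Symbols came from the platform annotation, with 34885 probes holding 1 symbol, 18 several and 10378 none, and 34807 matched RefSeq gene identifiers without a change of symbol. The comparison used the lmFit and eBayes functions of limma 3.58.1 (R 4.3.3, 2-sided, 4 residual and 2.63 prior degrees of freedom), with p-values adjusted by Benjamini-Hochberg over all tested probes. A gene was counted by its brightest probe. The steps were tested on simulated data.

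Members, lists and tests were chosen with earlier results of these data known. All members were named; of each pathway list the rule named up to 4 called genes with the largest difference, and other genes were chosen after their values were seen. The same-numbered mutant and control arrays deviated together from their group means (correlations 0.165, 0.155 and 0.224 over the tested probes). The replicate numbers may therefore pair the arrays, which rests on this ground alone. The main fit was unpaired, and the pairing entered only as the replicate block among the alternatives. The number of arrays limits the precision. Alternatives were another brightness filter, a trended prior, centring, a replicate block, the mean of a gene's probes, and leaving out each array.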

Additional observations from a re-analysis of the deposited data

How the results depend on the processing

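The signs of all 12 tested probes of the feedback genes held under every alternative that tested them, and the calls of Dusp4, Dusp5, Dusp6, Spred1 and Etv5 held too. The Etv4 call was lost with the replicate block (limma adjusted p = 0.0748, difference 0.20), which gave 5 of the feedback genes called and 6287 probes called in all, and changed no other call among these genes. Leaving out 1 array gave 5 to 6 of them called and 4598 to 7502 probes called in all, against 6596. The 10000 brightest probes hold Dusp4, Dusp6 and Spred1 of the set, so that 3 were called there, with 4387 probes called in all and, since Dusp8 is not among those probes, 0 of the p38 and JNK directed phosphatase genes lower.

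The receptor genes called higher were 1 with all probes, and 1 to 2 without 1 array, where 0 to 1 were called lower (by limma, 0 at an unadjusted p under 0.05 with all arrays). Without 1 array, 2 to 4 cascade genes and 1 to 2 of the p38 and JNK directed phosphatase genes were lower, and 1 to 3 ETS factors higher. ETS factors called higher were 2 with a trended prior. Ligand genes called higher were 2 with the filter on control arrays alone. With the mean of a gene's tested probes, 4 cascade genes were lower and Araf reversed to -0.067 (limma adjusted p = 0.362), since its probes disagree. Dim probes limit what can be read for Spry2, Spry4 and Spred2. The same limit holds for Dusp5 and Etv4, whose control means lay below that of Spry4.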
